A study of Mus musculus with 12 samples.

Results

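The genes described here are 10 markers of brain endothelium and of the blood-brain barrier: Cldn5, Pecam1, Ly6c1, Ly6a, Flt1, Kdr, Tek, Slc2a1, Abcb1a and Mfsd2a. They were taken by exact symbol from the 24346 genes of the deposited tables. All 10 were present, and all 10 passed the filter on low counts that left 17380 genes for testing. RNA was sequenced from 12 libraries of hKO1-positive cells, which the labels equate with dopaminergic neurons and which were sorted from microdissected midbrain of C57BL/6 mice. The mice had been injected into both substantiae nigrae with preformed fibrils of the G51D variant of α-synuclein, 20 µg at 5 µg/µL, or with saline alone. Tissue was collected 7 or 12 weeks after the injection, which gave 4 groups of 3 libraries: synuclein at 12 weeks, saline at 12 weeks, synuclein at 7 weeks and saline at 7 weeks. Surgery into the nigra, the strain, the hKO1 reporter and the sort were common to all 4 groups. The labels used here give no age, no sex and no promoter for the reporter. They do not say whether the libraries of a group came from different mice, and the p-values therefore refer to the spread between libraries, which may be technical.

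Capillaries of the brain are lined by endothelial cells that are sealed to one another by tight junctions and carry few of the vesicles that move solutes across other vessels. Glucose, amino acids and some lipids cross this barrier by dedicated carriers, while drug pumps return lipophilic compounds to the blood. The identity and upkeep of these vessels depend on vascular endothelial growth factor (VEGF), angiopoietin and Wnt signals from the surrounding tissue.

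None of the 10 genes passed the test between synuclein and saline (edgeR, adjusted p under 0.05) at either time, where 0% of all 17380 genes tested passed at 12 weeks and 0% at 7 weeks. At 12 weeks 9 of the 10 fold changes of synuclein over saline were above 0, and at 7 weeks all 10 were below 0, but every one of these folds had an interval that included 0. One gene, Slc2a1, which encodes the glucose carrier of the barrier, passed the test over time: it fell to 988 to 2513 CPM (read counts scaled to a common library size) in the 6 libraries of 12 weeks, against 2198 to 5239 CPM in the 6 libraries of 7 weeks, where 0.293% of all genes passed as lower. This call was lost in 8 of the 12 fits that left out 1 library. Over the same time 0.834% of all genes passed in either direction. Among them were 5 of 9 oligodendrocyte markers as higher and 2 of 9 dopaminergic and 2 of 8 pan-neuronal markers as lower. The other 9 genes also had fold changes below 0 over time, from -0.05 to -0.69 on the log2 scale, and did not pass in this test. Ly6c1 was called as well by DESeq2 (adjusted p = 0.0374) and by edgeR with a term for the replicate number (adjusted p = 0.0184).

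Assigned fragments ranged from 2506730 to 5533324 per library. Replicate 2 of synuclein at 12 weeks had 17432 genes above 0, against 19987 to 21164 in the other 11 libraries, and it lay apart from the rest on the first principal component, as replicate 1 of the same group did on the second. Marker genes of dopaminergic neurons, the cells named in the labels, were detected in each library, with a summed level of 9 genes of 488 to 2201 CPM. The 10 endothelial and barrier genes summed to 8781 to 21943 CPM in the same libraries, and 20 further genes of endothelial identity to 12252 to 33385 CPM. Much of the latter sum came from Bsg and Pltp, the highest of the 20, which averaged 6649 and 3582 CPM, against 179 CPM for Cdh5. The hKO1 reporter itself was not analysed here. In bulk RNA of this kind, fewer endothelial cells and less of a transcript per cell cannot be told apart.

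Deposited FPKM, which allow for transcript length, set the order of the 10 genes. Ly6c1 averaged 5884 FPKM over the 12 libraries, the second highest mean of all genes tested, and Ly6a averaged 3256 FPKM, the eighth. Cldn5 averaged 1156 FPKM and Slc2a1 1078 FPKM, at ranks 41 and 51. Flt1 followed with 306 FPKM and Mfsd2a with 175 FPKM. Pecam1, Tek and Abcb1a were close to each other, at 129.4, 129.1 and 127.1 FPKM, and Kdr was the lowest at 43.6 FPKM, with rank 2223. Each of these steps held in all 12 libraries for Ly6c1 over Ly6a, Ly6a over Cldn5, Slc2a1 over Flt1, Flt1 over Mfsd2a and Abcb1a over Kdr. Cldn5 exceeded Slc2a1 in 9 libraries, Mfsd2a exceeded Pecam1 in 9, Pecam1 exceeded Tek in 5 and Tek exceeded Abcb1a in 7, so the order of these neighbours changed between libraries.

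Among the junction and adhesion genes, Cldn5 encodes claudin-5, the main strand protein of the endothelial tight junction, and Pecam1 encodes the platelet and endothelial adhesion molecule CD31. Cldn5 lies on chromosome 16 at 18776847 to 18778262 on the plus strand and Pecam1 on chromosome 11 at 106654213 to 106715281 on the minus strand (coordinates of the deposited files, read as mm10). Levels from here on are CPM scaled by the trimmed mean of M-values (TMM), listed for replicates 1, 2 and 3 of a group. Cldn5 measured 1480.4, 1823 and 1383 CPM in synuclein at 12 weeks and 1333, 1447 and 1032 CPM in saline at 12 weeks. It measured 1271, 1396 and 1249.6 CPM in synuclein at 7 weeks and 1329, 1551 and 2002 CPM in saline at 7 weeks. The groups overlapped at both times, and Cldn5 was the steadiest of the 10 genes, with a coefficient of variation of 17.9% over the 12 libraries. Its log2 fold of synuclein over saline was 0.30 ± 0.23 (SE) at 12 weeks and -0.32 ± 0.23 at 7 weeks.

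Pecam1 measured 190.4, 540.0 and 511 CPM in synuclein at 12 weeks and 245, 348 and 287 CPM in saline at 12 weeks. It measured 328, 427 and 384 CPM in synuclein at 7 weeks and 312, 651 and 548 CPM in saline at 7 weeks. Replicate 1 of synuclein at 12 weeks was the lowest of all 12 libraries while replicates 2 and 3 of that group were above each saline library of 12 weeks. The log2 fold of synuclein over saline was 0.49 ± 0.33 at 12 weeks and -0.41 ± 0.33 at 7 weeks. The difference between these effects was 0.90 ± 0.47, the largest of the 10 genes, with a 95% interval from -0.09 to 1.89 (edgeR, adjusted p = 0.952).

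Ly6c1 and Ly6a encode small surface proteins of the Ly6 family anchored by a lipid tail, which are abundant on mouse brain endothelium and are also carried by some leukocytes and, for Ly6a, by blood stem cells. They lie near each other on the minus strand of chromosome 15, Ly6c1 at 75044018 to 75048837 and Ly6a at 74994877 to 74998031. Ly6c1 measured 2276, 3290.3 and 4351 CPM in synuclein at 12 weeks and 2215, 2597 and 2995 CPM in saline at 12 weeks. It measured 3031, 5418 and 3899 CPM in synuclein at 7 weeks and 3613, 6504 and 6118 CPM in saline at 7 weeks. After saline, each library of 12 weeks was below each library of 7 weeks, while after synuclein the times overlapped. The log2 fold of 12 over 7 weeks was -1.06 ± 0.29 after saline (edgeR, adjusted p = 0.268), -0.32 ± 0.29 after synuclein and -0.69 ± 0.21 over both treatments (adjusted p = 0.154). None of these passed in edgeR with group means alone. DESeq2 called Ly6c1 after saline (adjusted p = 0.0221) and over both treatments (adjusted p = 0.0374). So did edgeR with a term for the replicate number, after saline (adjusted p = 0.0487) and over both treatments (adjusted p = 0.0184).

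Ly6a measured 1516, 2075 and 3026 CPM in synuclein at 12 weeks and 1617, 1879 and 2198 CPM in saline at 12 weeks. It measured 2107, 3089 and 2678 CPM in synuclein at 7 weeks and 2149, 4011 and 3927 CPM in saline at 7 weeks. Ly6a followed Ly6c1 from library to library, with the highest library of both in replicate 2 of saline at 7 weeks. Its log2 fold of 12 over 7 weeks was -0.82 ± 0.29 after saline (edgeR, adjusted p = 0.449), -0.25 ± 0.29 after synuclein and -0.54 ± 0.20 over both (adjusted p = 0.314).

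Reads of Ly6 genes can be split among relatives. The annotated coding sequence of Ly6c1 was 79.8% identical to that of Ly6c2, a myeloid member of the family. Gaps counted as differences here: 352 bases were identical over 441 alignment columns, and the Ly6c2 sequence has only 393 bases. Of the 50-base words of the whole Ly6c1 transcript, 22.0% were found in transcripts of the relative. Ly6c2 was listed at 0 to 3.46 CPM, and shared reads could have been assigned to either gene. Ly6c1 and Ly6a were 66.2% identical with 1.77% of words shared, and Ly6a and Ly6e 49.6% identical with 0% shared. The 9 leukocyte genes, among them Ptprc and Cd3e, summed to 10.97 to 42.6 CPM, and each averaged under 10 CPM. Of these, Ptprc, which encodes the pan-leukocyte protein CD45, had 1.92 to 15.1 CPM, beside 2215 to 6504 CPM for Ly6c1 and 1516 to 4011 CPM for Ly6a.

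Flt1, Kdr and Tek encode receptor kinases of vessel growth and quiescence. The first pair are the VEGF receptors VEGFR1, largely a decoy, and VEGFR2, the main signalling receptor, and Tek is TIE2, the receptor of the angiopoietins. Flt1 and Kdr lie on the minus strand of chromosome 5, at 147562196 to 147725988 and 75933270 to 75978428, and Tek on the plus strand of chromosome 4 at 94739289 to 94874976. Flt1 measured 1601, 2065 and 2162 CPM in synuclein at 12 weeks and 1211, 2011 and 1597 CPM in saline at 12 weeks. It measured 1619, 2430.0 and 1619.6 CPM in synuclein at 7 weeks and 1645, 2583 and 2549 CPM in saline at 7 weeks. The groups overlapped in both comparisons, and the log2 fold of synuclein over saline was 0.27 ± 0.26 at 12 weeks and -0.26 ± 0.26 at 7 weeks.

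Kdr measured 180.3, 247 and 265 CPM in synuclein at 12 weeks and 135, 319 and 206 CPM in saline at 12 weeks. It measured 191, 266 and 227 CPM in synuclein at 7 weeks and 150.3, 303 and 356 CPM in saline at 7 weeks. The saline libraries enclosed all synuclein libraries at both times. The log2 fold of synuclein over saline was 0.07 ± 0.32 at 12 weeks, with a 95% interval from -0.61 to 0.75, and -0.24 ± 0.32 at 7 weeks.

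Tek measured 348, 737 and 806 CPM in synuclein at 12 weeks and 329, 454 and 542 CPM in saline at 12 weeks. It measured 550.4, 699 and 643 CPM in synuclein at 7 weeks and 399, 709 and 868 CPM in saline at 7 weeks. Replicates 2 and 3 of synuclein at 12 weeks were above each saline library of that time and replicate 1 was not. The log2 fold of synuclein over saline was 0.51 ± 0.32 at 12 weeks (edgeR, adjusted p = 0.902) and -0.06 ± 0.32 at 7 weeks.

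The remaining 3 genes encode transport proteins of the capillary wall. Slc2a1 encodes GLUT1, the carrier by which glucose enters the brain, and lies on chromosome 4 at 119108745 to 119137329 on the plus strand. Slc2a1 measured 1559, 1992 and 2513 CPM in synuclein at 12 weeks and 988, 1406 and 1861 CPM in saline at 12 weeks. It measured 2407, 5239 and 2198 CPM in synuclein at 7 weeks and 3190.0, 4557 and 3802 CPM in saline at 7 weeks. After saline the times did not overlap, and after synuclein replicate 3 of 12 weeks was above replicates 1 and 3 of 7 weeks. Slc2a1 varied the most of the 10 genes, with a coefficient of variation of 49.5% and a ratio of highest to lowest library of 5.30.

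The log2 fold of Slc2a1 for 12 over 7 weeks was -1.07 ± 0.23 over both treatments, a level 0.476 times that of 7 weeks, with a 95% interval from -1.55 to -0.59 (edgeR, adjusted p = 0.0379). It was -1.44 ± 0.33 after saline (adjusted p = 0.174) and -0.70 ± 0.32 after synuclein (adjusted p = 0.639), and neither passed on its own in this fit. The fold after saline was called by DESeq2 (adjusted p = 0.0026) and by edgeR with a term for the replicate number (adjusted p = 0.0398). The difference between the 2 time effects, which equals the difference between the synuclein effects at 12 and 7 weeks, was 0.74 ± 0.45 (adjusted p = 0.952). The call over both treatments was close to the threshold: it was lost in 8 of the 12 fits that left out 1 library, whose adjusted p ranged from 0.0272 to 0.119. Those 8 left out replicate 2 or 3 of saline at 7 weeks, replicate 1 or 2 of synuclein at 7 weeks, any library of saline at 12 weeks or replicate 1 of synuclein at 12 weeks, and the fold in these fits lay between -1.16 and -0.80. Without replicates 1 and 2 of synuclein at 12 weeks, which lay apart, the fold was -0.92 with an adjusted p of 0.348 in edgeR.

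**Figure D1:**
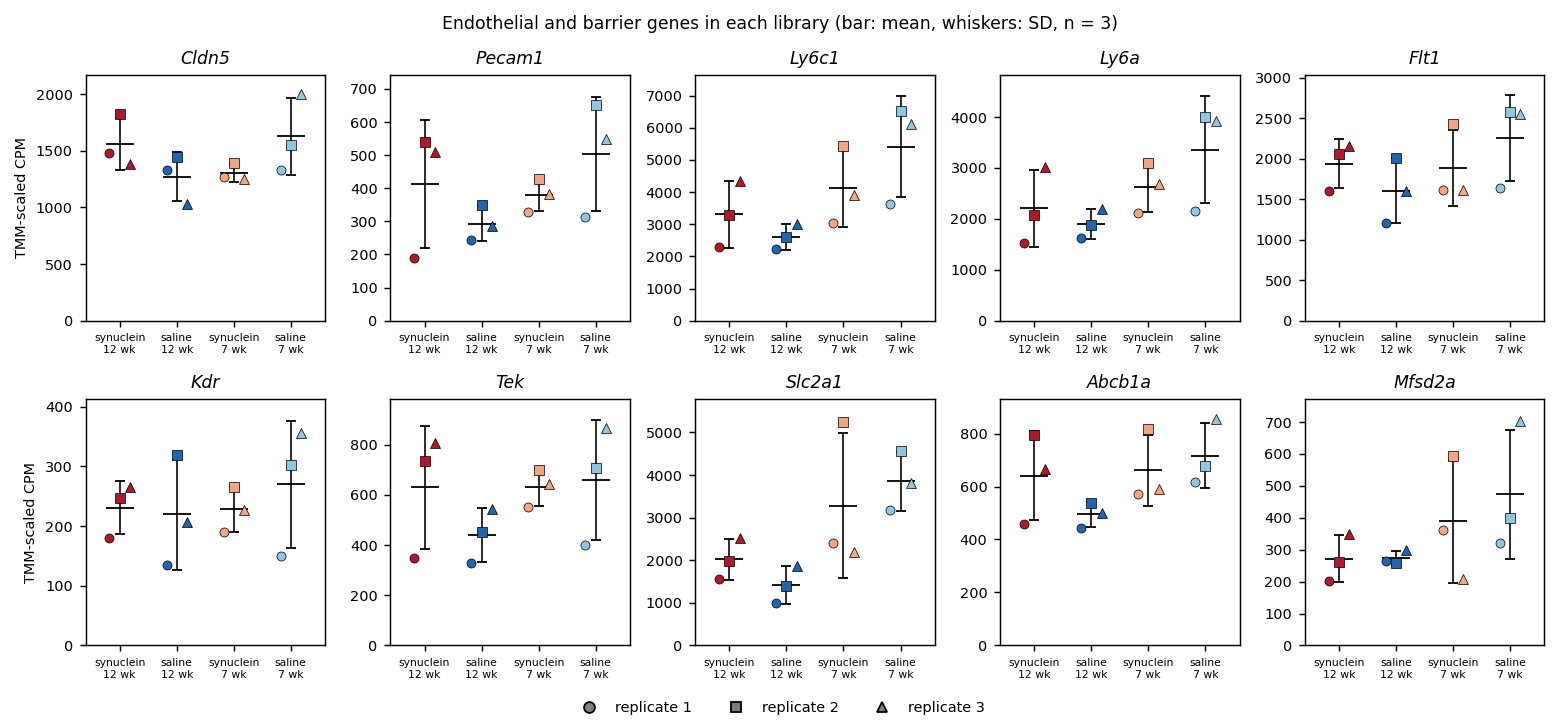
TMM-scaled CPM (linear axis from 0) of the 10 genes in each of the 12 libraries, by group; points are libraries with the replicate number as shape, bars the group mean and whiskers the SD (n = 3). Slc2a1 measured 988 to 1861 CPM in saline at 12 weeks and 3190.0 to 4557 CPM in saline at 7 weeks, while Cldn5 overlapped between all groups.

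Abcb1a encodes the efflux pump P-glycoprotein and lies on chromosome 5 at 8660092 to 8748570 on the plus strand. Abcb1a measured 460.1, 794 and 668 CPM in synuclein at 12 weeks and 445, 539 and 502 CPM in saline at 12 weeks. It measured 572, 817 and 593 CPM in synuclein at 7 weeks and 618, 677 and 856 CPM in saline at 7 weeks. After saline each library of 12 weeks was below each library of 7 weeks, with a log2 fold of -0.53 ± 0.24 (edgeR, adjusted p = 0.653). Its twin gene Abcb1b, with a coding sequence 87.6% identical and 15.5% of the 50-base words of the Abcb1a transcript shared, was listed at 1.14 to 8.29 CPM.

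Mfsd2a encodes a carrier of lysophosphatidylcholine that bears docosahexaenoic acid into the brain and restrains vesicle transport across the endothelium, and lies on chromosome 4 at 122946851 to 122961188 on the minus strand. Mfsd2a measured 203, 261 and 351 CPM in synuclein at 12 weeks and 263, 258 and 298 CPM in saline at 12 weeks. It measured 363, 594 and 209 CPM in synuclein at 7 weeks and 321, 398 and 702 CPM in saline at 7 weeks. The spread was wide at 7 weeks and narrow in saline at 12 weeks. The log2 fold of synuclein over saline was -0.01 ± 0.34 at 12 weeks, with a 95% interval from -0.72 to 0.71, and the log2 fold of 12 over 7 weeks was -0.79 ± 0.34 after saline (edgeR, adjusted p = 0.602).

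Read as a group, the 10 genes lay on one side of 0 in 4 of the 6 comparisons. For synuclein over saline at 12 weeks, 9 were above 0 with a median log2 fold of 0.32, with Mfsd2a turning to 0.013 under DESeq2 size factors and Kdr to -0.0039 under library totals, against 47.3% above 0 and a median of -0.04 over all genes tested. None passed an adjusted p of 0.05, as 0% of all genes did, and none had an unadjusted p under 0.05, against 5.57% of all genes. At 7 weeks all 10 were below 0 with a median of -0.27, with Tek turning to 0.030 under library totals, against 48.8% below 0 and a median of 0.01 over all genes. Again none of the 10 passed (0% of all genes did), and none had an unadjusted p under 0.05, against 1.64% of all genes. Genes of one cell type vary together between libraries, so a shared sign of the 10 is not 10 separate observations.

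The change in the synuclein effect between 12 and 7 weeks was above 0 for all 10 genes, with a median of 0.58, against 47.4% above 0 and a median of -0.05 over all genes. No gene passed in this comparison (0% of all genes), and none of the 10 had an unadjusted p under 0.05 in edgeR, against 4.49% of all genes. The estimates ranged from 0.28 ± 0.48 for Mfsd2a to 0.90 ± 0.47 for Pecam1, and the adjusted p of the 10 from 0.952 to 0.972. DESeq2 gave 1 and limma-voom 2 of the 10 genes an unadjusted p under 0.05 and also called none.

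The median of the 10 folds moved with single libraries. For synuclein over saline at 12 weeks it was 0.54 without replicate 1 of synuclein, 0.56 without replicates 1 and 2 of synuclein and 0.48 without replicate 2 of saline. At 7 weeks it was -0.48 without replicate 2 of synuclein and -0.18 without replicate 1 of synuclein. It was -0.14 without replicate 3 of saline and -0.47 without replicate 1 of saline at that time. Without replicates 1 and 2 of synuclein at 12 weeks, which lay apart, the median change in the synuclein effect was 0.83, and the median of 12 over 7 weeks was 0.14 after synuclein and -0.22 over both treatments.

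Over time after saline, all 10 genes were below 0 in 12 over 7 weeks, with a median of -0.68, against 49% below 0 and a median of 0.01 over all genes. No gene passed after adjustment (0% of all genes), while 6 of the 10 were lower at an unadjusted p under 0.05, against 3.92% of all genes: Pecam1, Ly6c1, Ly6a, Slc2a1, Abcb1a and Mfsd2a. In 4 of the 10, Ly6c1, Slc2a1, Abcb1a and Mfsd2a, the saline libraries of 12 weeks all lay below those of 7 weeks, which was so for 7.83% of all genes. Without replicate 3 of saline at 7 weeks the median was -0.37. DESeq2 called Ly6c1 and Slc2a1 in this comparison, as did edgeR with a term for the replicate number, and limma-voom called none of the 10.

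After synuclein, 6 of the 10 were below 0 in 12 over 7 weeks, with a median of -0.02, whose sign changed with the settings tried, against 54.2% below 0 and a median of -0.06 over all genes. None passed (0% of all genes), and 1, Slc2a1, was lower at an unadjusted p under 0.05, against 4.28% of all genes. That the time effect differed between saline and synuclein was not called for any of the 10 genes, as given above. The time comparison after saline and the comparison at 7 weeks share the saline libraries of 7 weeks, so a high library there moves both.

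Over both treatments all 10 were below 0, with a median of -0.31, against 53% below 0 and a median of -0.03 over all genes. Slc2a1 was the 1 of the 10 that passed, where 0.834% of all genes passed in either direction and 0.293% passed as lower. At an unadjusted p under 0.05, 4 of the 10 were lower (Ly6c1, Ly6a, Slc2a1 and Mfsd2a), against 5.29% of all genes. Cldn5 was at -0.05 ± 0.16, with a 95% interval from -0.38 to 0.29, and Kdr at -0.14 ± 0.23. The median was -0.16 without replicate 1 of synuclein at 12 weeks. DESeq2 called Ly6c1 in addition to Slc2a1, as did edgeR with a term for the replicate number, and limma-voom called Slc2a1 alone.

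**Figure D2:**
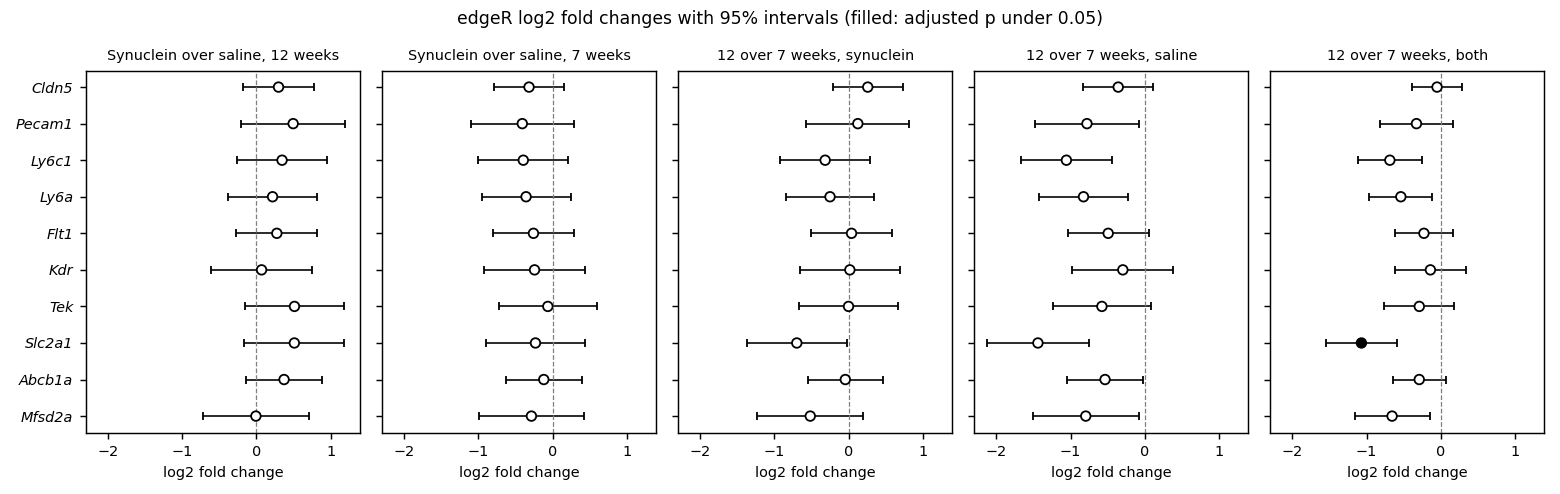
Log2 fold changes (horizontal axis) of the 10 genes in 5 comparisons, from edgeR with 95% intervals; the filled point has an adjusted p under 0.05. Slc2a1 at -1.07 in 12 over 7 weeks over both treatments is the filled point, and the intervals of synuclein over saline include 0 for all 10 genes at both times.

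The 10 genes varied together across libraries. Replicate 3 of saline at 7 weeks was the highest library for 5 of them, replicate 2 of saline at 7 weeks for 4 and replicate 2 of synuclein at 7 weeks for Slc2a1. The lowest library was replicate 1 of saline at 12 weeks for 6, replicate 1 of synuclein at 12 weeks for 3 and replicate 3 of saline at 12 weeks for Cldn5. Within each group replicate 1 had the lowest sum of the 10 genes. That sum was 9815 CPM in synuclein and 8781 CPM in saline at 12 weeks, and 12439 CPM in synuclein and 13726 CPM in saline at 7 weeks. The part of the replicate number in the correlations below was not tested. As a description over 12 libraries that share depth and scaling, Pearson's r of log2 CPM between pairs of the 10 genes had a median of 0.76 over the 45 pairs. It ran from 0.27 for Cldn5 with Slc2a1 to 0.98 for Ly6c1 with Ly6a. Cldn5 was the least like the rest, with an r of 0.49 against the mean of the other 9, and Ly6c1 the most, with 0.94.

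Of 8601 genes with a mean of at least 20 CPM, those whose log2 CPM followed the mean of the 10 most closely over the 12 libraries were Myl12b (Pearson's r = 0.98), Tspan13 (0.97), Slc3a2 (0.97), Sox18 (0.97), Adgrl4 (0.96), Ramp2 (0.96), Lgals9 (0.96) and Myl6 (0.96). Slc3a2 encodes the heavy chain of the large neutral amino acid carrier, Sox18 an endothelial transcription factor, Adgrl4 an adhesion receptor of endothelium and Ramp2 a partner of the adrenomedullin receptor. Myl12b and Myl6 encode myosin light chains that many cell types carry.

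To set apart a change of a gene from a change shared with endothelial genes in general, each level was also expressed in log2 relative to the mean of the 20 further endothelial identity genes of the same library. That mean itself was 8.10 to 9.09 log2 CPM in the libraries of 12 weeks and 8.59 to 9.48 log2 CPM in those of 7 weeks. Relative to it, Slc2a1 was at 1.78 to 2.35 at 12 weeks and 2.29 to 3.14 at 7 weeks, a difference in means of -0.72 with a small overlap. Ly6c1 was at 2.66 to 3.01 at 12 weeks and 2.97 to 3.55 at 7 weeks, a difference of -0.35. Mfsd2a, Ly6a and Pecam1 differed by -0.25, -0.21 and -0.05. Tek and Abcb1a differed by 0.01 and 0.03, Flt1 by 0.10, Kdr by 0.18 and Cldn5 by 0.27, higher at 12 weeks. These relative levels carry no test.

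**Figure D3:**
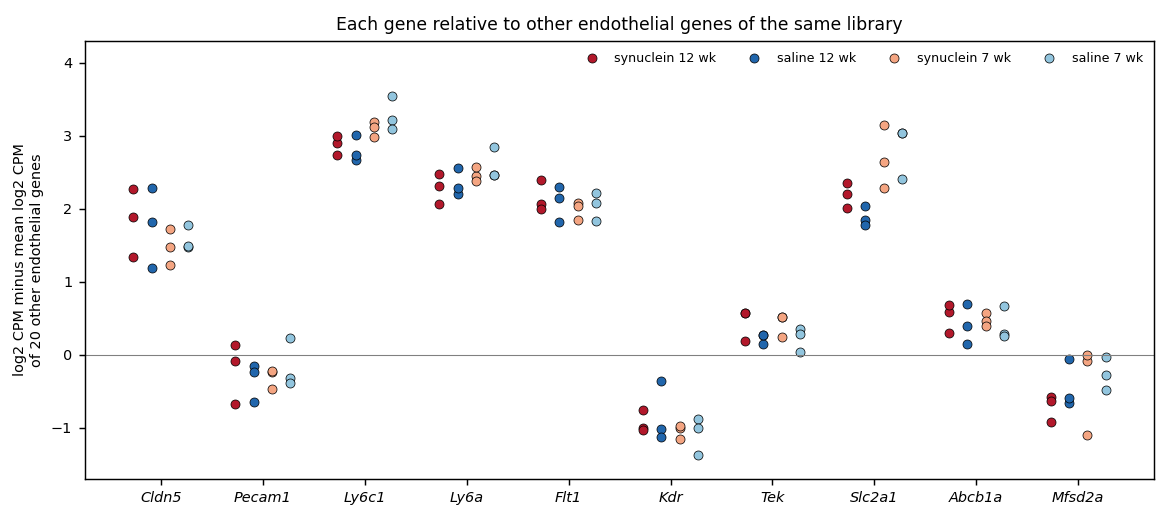
Log2 CPM of each gene minus the mean log2 CPM of 20 other endothelial genes in the same library (vertical axis), with 1 point per library coloured by group. Slc2a1 lay at 1.78 to 2.35 in the 6 libraries of 12 weeks and 2.29 to 3.14 in the 6 of 7 weeks, while Abcb1a and Tek lay at like values at both times.

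The 20 further endothelial identity genes, among them Bsg (basigin), Pltp (phospholipid transfer protein) and Itm2a, all passed the filter and none was called in any comparison. After saline all 20 were below 0 in 12 over 7 weeks with a median log2 fold of -0.59, against 49% of all genes, and 7 were lower at an unadjusted p under 0.05, against 3.92% of all genes. For synuclein over saline at 12 weeks, 19 of 20 were above 0 with a median of 0.24, against 47.3% of all genes. At 7 weeks 18 of 20 were below 0 with a median of -0.22, against 48.8% of all genes. As genes of one cell type, these 20 are not 20 separate observations either. Bsg, the most abundant by FPKM, averaged 7141 ± 2107 CPM in synuclein at 12 weeks, 5473 ± 1186 CPM in saline at 12 weeks, 6294 ± 192 CPM in synuclein at 7 weeks and 7686 ± 3045 CPM in saline at 7 weeks (SD, n = 3 each). These groups overlapped and gave a log2 fold of 0.38 ± 0.29 for synuclein over saline at 12 weeks.

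None of the further genes of the barrier was called in any comparison. Of 18 barrier transporters tested, 17 were below 0 in 12 over 7 weeks after saline with a median of -0.61, against 49% of all genes. When p was not adjusted, 9 of the 18 were lower, as were 3 of 13 junction genes (with 1 higher), 3 of 15 genes of VEGF, angiopoietin and Notch signalling, 5 of 16 of Wnt signalling and 2 of 10 of caveolae, transcytosis and leukocyte adhesion, against 3.92% of all genes. Abcg2, which encodes the efflux pump BCRP, averaged 534 ± 72.2 CPM in synuclein at 12 weeks, 396 ± 49.0 CPM in saline at 12 weeks, 653 ± 337 CPM in synuclein at 7 weeks and 784 ± 207 CPM in saline at 7 weeks. Its log2 fold of 12 over 7 weeks was -0.99 ± 0.30 after saline. Slco1a4 and Slco1c1, carriers of organic anions and of thyroxine, had folds of -0.62 ± 0.29 and -0.69 ± 0.28 in the same comparison.

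Of 13 junction genes, 10 were below 0 in 12 over 7 weeks after saline with a median of -0.26. In this comparison 49% of all genes were below 0, which applies to the lists that follow as well. The junction folds ran from -0.95 to 0.90, and Lsr, which encodes angulin-1 of tricellular junctions, had a fold of -0.95 ± 0.32. Of 15 tested genes of VEGF, angiopoietin and Notch signalling, 9 were below 0 with a median of -0.26. Nrp1, a co-receptor of VEGF, had a fold of -0.43 ± 0.24, and Vegfb, a ligand of FLT1, a fold of -0.26 ± 0.40. Of 16 genes of Wnt signalling at the barrier 13 were below 0 with a median of -0.34, where Lef1, a Wnt transcription factor, was at -0.32 ± 0.29. Of 10 tested genes of caveolae, transcytosis and leukocyte adhesion 8 were below 0 with a median of -0.52, and Cav1 (caveolin-1) was at -0.32 ± 0.32. For synuclein over saline, the medians of these 5 lists lay between 0.19 and 0.36 at 12 weeks. At 7 weeks the median was 0.27 for caveolae, transcytosis and leukocyte adhesion and between -0.31 and -0.16 for the other lists. When p was not adjusted, 3 of 18 transporters, 1 of 16 Wnt and 1 of 10 caveolae genes were higher at 12 weeks. In the VEGF list 1 of 15 was lower, against 5.57% of all genes in either direction.

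Markers of other cell types moved with time in the same libraries, where 0.834% of all genes passed over both treatments in either direction and 0.293% as lower. The 9 oligodendrocyte genes summed to 28964 to 52276 CPM in the libraries of 12 weeks and 19170 to 29691 CPM in those of 7 weeks, and 5 of them (Mbp, Trf, Cnp, Mobp and Cldn11) passed as higher over both treatments. The 9 dopaminergic genes summed to 488 to 1016 CPM at 12 weeks and 589 to 2201 CPM at 7 weeks, and 2 of them (Th and Slc18a2) passed as lower over both treatments. Of 8 pan-neuronal genes 2 passed as lower (Snap25 and Stmn2), and of 6 tested ependymal and choroid plexus genes 1 passed as higher (Enpp2, which oligodendrocytes also express). Foxa2 was the 1 dopaminergic gene listed at 0 in any library, in 4 of the 12, while no oligodendrocyte or pan-neuronal gene was at 0. CPM are shares of a library, and the part of these shifts in the fall of Slc2a1 was not tested.

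The 12 pericyte and smooth muscle genes, which mark the cells that wrap these vessels, summed to 1143 CPM in replicate 3 of synuclein at 7 weeks and to 187 to 408 CPM in the other 11 libraries. Of that sum, 768 CPM came from the 3 smooth muscle genes Acta2, Tagln and Myh11, which summed to 14.5 to 142 CPM in the other libraries. The 9 pericyte genes summed to 375 CPM in it, above the 159 to 265 CPM of the other libraries of 7 weeks. In the libraries of 12 weeks they summed to 231 to 379 CPM. All 12 were detected in each library, and none was called in any comparison. The same library held the highest sum of the 11 microglial genes, 607 CPM, and the lowest Mfsd2a and Slc2a1 of its time, 209 and 2198 CPM. Without it the log2 fold of Slc2a1 over both treatments was -1.16 (edgeR, adjusted p = 0.0272).

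**Figure D4:**
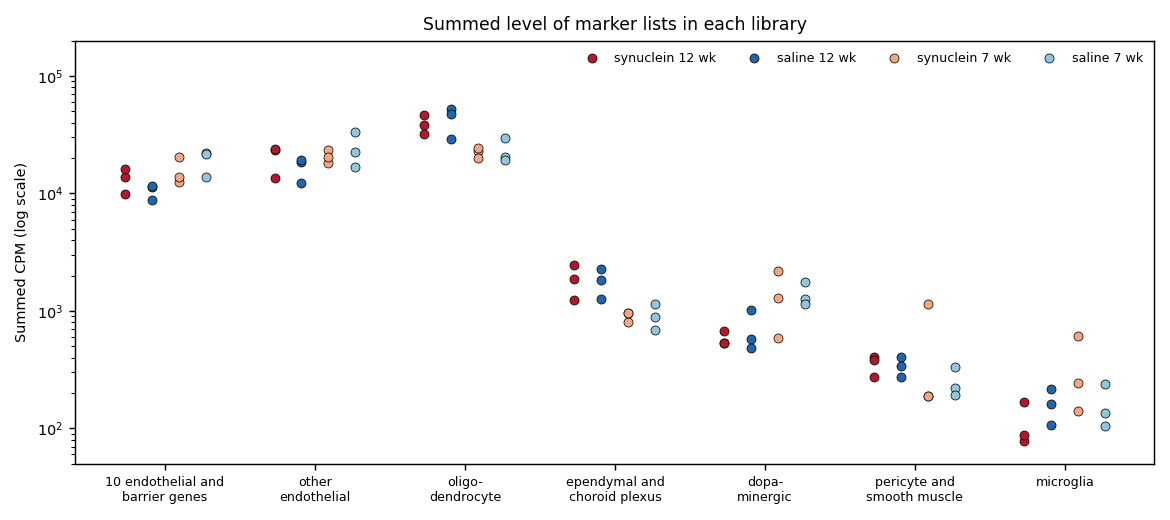
Summed CPM (log axis) of the 10 endothelial and barrier genes and of 6 marker lists, with 1 point per library coloured by group. The 10 genes summed to 8781 to 21943 CPM and the dopaminergic genes to 488 to 2201 CPM, and oligodendrocyte genes to 28964 to 52276 CPM at 12 weeks and 19170 to 29691 CPM at 7 weeks.

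Promoters were compared because the 10 genes varied together between libraries. RefSeq promoters of 300 bases, 250 before the start of transcription and 50 after it, were matched to 8 of the 10 genes on GRCm38.p6, with 2 starts for Ly6c1, and Pecam1 and Ly6a were not matched. The start listed for Abcb1a lies far upstream of the deposited locus, with its promoter at 8566841 to 8567140 and the locus from 8660092. The Abcb1a matches and base content below belong to that distant window. The motifs searched, on both strands, were AGGAAG, a core of ETS factor sites, ACAATG, a core of SOX factor sites, and CTTTGA, a core of LEF/TCF sites. AGGAAG was present for Abcb1a, Flt1 and Ly6c1, 3 of the 8 genes, and in 35.4% of all 32851 promoters in the table. CTTTGA was present for Abcb1a and Mfsd2a, and in 16% of all promoters, and ACAATG for none of the 8, and in 12.6% of all. The 250 bases before the start are shown 5′ to 3′ on the gene's strand for Slc2a1, the gene that passed over time, for Cldn5, the gene least like it across libraries, and for Flt1 and Mfsd2a, a receptor and a carrier that hold a motif, with AGGAAG or CTTTGA in capitals.
Slc2a1 (chr4:119108495-119108744, plus strand): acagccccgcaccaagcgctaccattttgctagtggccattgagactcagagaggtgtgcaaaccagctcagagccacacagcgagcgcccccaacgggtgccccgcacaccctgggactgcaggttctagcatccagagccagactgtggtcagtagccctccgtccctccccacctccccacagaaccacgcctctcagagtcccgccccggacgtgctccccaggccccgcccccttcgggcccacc
Cldn5 (chr16:18776597-18776846, plus strand): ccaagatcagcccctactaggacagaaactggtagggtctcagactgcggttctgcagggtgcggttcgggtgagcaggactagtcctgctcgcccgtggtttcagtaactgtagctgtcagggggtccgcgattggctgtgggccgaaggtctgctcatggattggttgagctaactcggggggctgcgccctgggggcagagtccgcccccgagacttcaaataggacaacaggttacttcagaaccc
Flt1 (chr5:147726012-147726261, minus strand): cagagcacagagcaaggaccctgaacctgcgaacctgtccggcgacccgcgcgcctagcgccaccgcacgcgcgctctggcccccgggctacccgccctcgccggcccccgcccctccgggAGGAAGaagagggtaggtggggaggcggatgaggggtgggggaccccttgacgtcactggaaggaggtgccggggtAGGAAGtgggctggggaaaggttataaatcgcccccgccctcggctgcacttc
Mfsd2a (chr4:122961189-122961438, minus strand): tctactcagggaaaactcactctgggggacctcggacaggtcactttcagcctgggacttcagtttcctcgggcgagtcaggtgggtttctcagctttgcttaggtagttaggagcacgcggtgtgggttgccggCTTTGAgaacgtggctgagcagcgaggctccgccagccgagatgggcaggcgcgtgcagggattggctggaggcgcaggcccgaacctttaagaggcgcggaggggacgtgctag
Over the full 300 bases the promoters of Slc2a1, Cldn5, Flt1 and Mfsd2a had a GC content of 65.3%, 58.3%, 70.7% and 60.3%, against a median of 52.7% over all promoters, and held 18, 12, 29 and 22 CpG dinucleotides against a median of 7. Tek and Abcb1a, with 52.0% and 40.3% GC, held 3 and 2. The motif matches are letters in a window and were not tested against the expression values.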

How the data were processed

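RNA of 12 libraries was analysed from the authors' tables of 24346 genes. Reads were processed with TopHat2 2.0.13, Bowtie2 2.2.3 and Cufflinks 2.2.1, per the submitters' processing notes, and no genome build is named there. The deposited estimated counts are scaled: in each library 98.8% to 98.9% of the values above 0 were whole multiples, within 0.02 fragments, of 1 step between 0.685 and 1.30, and dividing by it gave the assigned fragments. FPKM values were deposited by the authors and were used for levels between genes. Whether counting used strand is not given; no other gene model of the tables overlapped the 10 genes.

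The estimated counts were rounded and tested in edgeR 4.0.16 (R 4.3.3) by quasi-likelihood with filterByExpr, TMM scaling and 1 mean per group over all 12 libraries, with 8 residual degrees of freedom. The common coefficient of variation between libraries, beyond the noise of counting, was 46.6%. P-values were adjusted by Benjamini-Hochberg over 17380 genes, the threshold was 0.05, and intervals cover 95%. The fits were tested on simulated data. Alternatives used DESeq2 1.42.0, limma 3.58.1, other scalings, filters and units, a replicate block and fits without single libraries.

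The 10 genes, the lists, the motifs and the alternatives were chosen with earlier results of these data known. The text names all 10 genes, the 3 genes of a list with the highest mean FPKM among which examples were taken, and relatives that could share reads. Identities come from the longest annotated coding sequences of GENCODE M21 (GRCm38). File coordinates were moved to count from 1. In that annotation the end of Pecam1 lies 35347 bases further, and the other members' ends lie within 654 bases.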

Additional observations from a re-analysis of the deposited data

How the results depend on the processing

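Over the alternatives the median of the 10 folds lay between 0.24 and 0.56 for synuclein over saline at 12 weeks, -0.48 and -0.14 at 7 weeks, and 0.42 and 0.83 for the change in that effect. For 12 over 7 weeks it lay between -0.93 and -0.37 after saline, -0.16 and 0.21 after synuclein, and -0.42 and -0.16 over both treatments. Of 1420 alternative folds of single genes 1333 kept direction and side of the threshold. Slc2a1 over both treatments remained called in 12 of 23 alternatives. It was not called with log2(FPKM + 1), at -1.02 with adjusted p 0.0964, with log2(FPKM + 0.1), at -1.02 with adjusted p 0.133, or without synuclein at 12 weeks replicates 1 and 2, at -0.92 with adjusted p 0.348 (limma and edgeR). That last fit keeps 1 library of its group, which is assumed to vary like the other groups. Genes called over both treatments, 145 with edgeR, were 468 with DESeq2, 246 with the replicate block, 5 and 1 on FPKM with pseudocounts of 1 and 0.1, 0 without those 2 libraries (edgeR, with 1414 genes at an unadjusted p under 0.05) and 24 to 214 when 1 library was left out. After saline, 0 in edgeR became 165 with DESeq2, 34 with the block, 7 with no filter, 1 and 2 on FPKM, 14 without those 2 libraries, 49 with only the 2 groups compared and 0 to 9 when 1 library was left out. After synuclein, 0 became 82 with DESeq2 and 0 to 2 when 1 was left out. For synuclein over saline at 12 weeks, 0 became 12 with DESeq2, 1 and 2 on FPKM and 0 to 1 when 1 was left out, and at 7 weeks 0 to 1. For the change in the synuclein effect, 0 became 1 on FPKM with either pseudocount. The causes of these moves were not tested.

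Single folds changed sign as follows. For Mfsd2a in synuclein over saline at 12 weeks the log2 fold was 0.013 with DESeq2 size factors, a mean of at least 1 CPM and DESeq2, 0.030 with no filter, 0.0057 with only the 2 groups and 0.37 without synuclein at 12 weeks replicates 1 and 2. For Tek after synuclein it was 0.029 with DESeq2 size factors and DESeq2, 0.031 with no filter and at least 1 CPM, 0.0032 with whole fragments, 0.042 with only the 2 groups and 0.36 without those 2 libraries. For Tek at 7 weeks it was 0.030 with library totals, 0.0026 with limma-voom, 0.016 with the block, 0.0053 on FPKM + 1 and 0.0057 on FPKM + 0.1. With library totals Kdr was -0.0039 at 12 weeks and -0.062 after synuclein, and Flt1 -0.032 after synuclein; Pecam1 was -0.010 after synuclein with limma-voom. Without synuclein at 12 weeks replicates 1 and 2, the time folds after synuclein were 0.084 for Ly6c1, 0.21 for Ly6a and 0.020 for Abcb1a. Leaving out 1 library gave these ranges after synuclein: Abcb1a -0.19 to 0.20, Flt1 -0.048 to 0.29, Kdr -0.10 to 0.22, Ly6a -0.55 to 0.014, Pecam1 -0.076 to 0.53 and Tek -0.22 to 0.35. At 7 weeks they were Abcb1a -0.30 to 0.038, Kdr -0.53 to 0.020, Mfsd2a -0.73 to 0.12 and Tek -0.32 to 0.20. At 12 weeks they were Kdr -0.18 to 0.48, Ly6a -0.080 to 0.48 and Mfsd2a -0.24 to 0.21. Over both treatments Cldn5 was -0.10 to 0.068 and Kdr -0.30 to 0.027, after saline Kdr was -0.67 to 0.0052, and the change in the synuclein effect on Mfsd2a was -0.11 to 0.75. Slc2a1 over both treatments was -1.17 to -0.80.

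Correlations of deviations between libraries showed little pairing by replicate number: of 18 between same-numbered libraries 1 was over 0.1, with a median of 0.04. Of 36 between libraries with different numbers 1 was over 0.1 as well, with a median of -0.03. The endothelial and barrier genes described here nevertheless had their lowest sum in replicate 1 within each group, as given above. So did the lists of further endothelial identity, junction, barrier transporter, Wnt signalling, and caveolae, transcytosis and leukocyte adhesion genes. The list of VEGF, angiopoietin and Notch signalling did not in each group. Whether the replicate number pairs the libraries for these genes was not tested. With the replicate block Ly6c1 was called over both treatments (-0.67, adjusted p 0.0184) and after saline (-1.01, adjusted p 0.0487), as was Slc2a1 after saline (-1.45, adjusted p 0.0398; edgeR). With 3 libraries per group, the standard errors of 0.23 to 0.34 for these genes limit what a comparison of 2 groups can detect; the lowest of their counts was 384 fragments, for Kdr.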
